A study of Homo sapiens with 12 samples.

Results

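Fatty acid, triglyceride and lipid droplet metabolism was followed through 40 genes, chosen by name as the enzymes and proteins of cytosolic fatty acid synthesis, elongation, desaturation, activation, glycerolipid assembly, droplet coating, lipolysis, mitochondrial fatty acid synthesis and mitochondrial import. The choice was made with earlier results of these data known. All 40 were listed among 30984 genes in the KYSE30 count table and among 78691 genes in the U138MG count table. Poly-A RNA-seq libraries came from KYSE30, a line of esophageal squamous carcinoma, and from cells labelled U138MG, a line of glioblastoma, both recorded as wild type. Each line was treated for 48 h with DMSO, the vehicle, or with 100 nM PTDSS1i, a small-molecule inhibitor of phosphatidylserine synthase 1, and each of the 4 groups held 3 libraries, 12 in all. The labels do not say whether the 3 libraries of a group came from separate cultures, so p-values measure the spread between these libraries, which may be technical. Each line was 1 batch by the labels, so a difference between the lines and a difference between the batches cannot be told apart. The count tables list different numbers of genes and may rest on different annotations. An effect of annotation on levels or differences between the lines cannot be told apart either.

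PTDSS1 makes phosphatidylserine by exchanging the head group of phosphatidylcholine for serine. Fatty acids are built in the cytosol from acetyl-CoA by acetyl-CoA carboxylase and fatty acid synthase, then lengthened and desaturated in the endoplasmic reticulum, and joined to coenzyme A before use. Acyl-CoA is added stepwise to glycerol-3-phosphate to give phosphatidic acid and diacylglycerol, from which cells make phospholipids, or triglyceride that is stored in droplets coated with perilipins and released by lipases. Many genes of fatty acid synthesis and desaturation are known targets of the SREBP transcription factors, which respond to membrane lipids.

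Libraries held 18800932 to 25233442 counts in KYSE30 and 19141002 to 26514658 in the U138MG-labelled set, where 3 counts equalled 0.160 and 0.157 CPM (counts scaled to library size) in the smallest library. Markers in the U138MG-labelled libraries went against the glioblastoma label. With DMSO, KRT15 averaged 4629 normalized CPM, TP63 262 and CDH1 441 there, while KRT6A (0.464), KRT14 (0.189) and GFAP (2.24) were low. The KYSE30 DMSO libraries held epithelial markers, with CDH1 at 496, EPCAM at 270 and TP63 at 94.7. Among squamous keratins KRT15 was at 39.9 there, and KRT6A (5.06) and KRT14 (0.343) were low. KRT5, a keratin of squamous epithelium, averaged 1399 normalized CPM and VIM, a mesenchymal filament usual in glioblastoma lines, 0.196 in the U138MG-labelled DMSO libraries, against 0.0588 and 3.87 in the KYSE30 DMSO libraries, so the former are called U138MG-labelled throughout. Summed over 9 squamous or epithelial markers, the U138MG-labelled libraries held 7771 to 8588 CPM with DMSO and 3051 to 3205 with PTDSS1i, and the KYSE30 libraries 1263 to 1309 with DMSO and 1848 to 1856 with PTDSS1i. Over 10 glial or mesenchymal markers the U138MG-labelled libraries held 885 to 913 CPM with DMSO and 457 to 471 with PTDSS1i, most of it SPARC (678 and 367 normalized CPM on average), while OLIG2 and S100B were at 0 in every one of them. The KYSE30 libraries held 202 to 247 and 176 to 177 CPM over the 8 of these markers listed there. Of 5 adipocyte markers, only 3 of them listed in KYSE30, the summed CPM lay between 0.867 and 1.94 in all 12 libraries, most of it PLIN1. A set of 6 markers of proliferation summed to 1760.2 to 1812 CPM with DMSO and 505 to 528 with PTDSS1i in KYSE30, and to 994 to 1099 and 365 to 403 in the U138MG-labelled libraries, and their part in the results was not tested.

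The summed level of the 40 genes was higher with PTDSS1i in both lines, and most of the gain lay in FASN and SCD. Levels are normalized CPM, which are CPM after edgeR's TMM scaling, and a gene is said to rise or fall only at an adjusted p under 0.05 in edgeR's quasi-likelihood test. Summed over the 40 genes, the KYSE30 libraries held 6963, 6181 and 6517 normalized CPM with DMSO and 17836, 17595 and 17934 with PTDSS1i, 2.71-fold more. The U138MG-labelled libraries held 6339, 6112 and 6429 with DMSO and 15833, 15871 and 16147 with PTDSS1i, 2.53-fold more. FASN and SCD together made up 53.3% of the summed level with DMSO and 69.5% with PTDSS1i in KYSE30, and 43.8% and 57.8% in the U138MG-labelled libraries. Without these genes the sum was 3062 ± 97.1 with DMSO and 5431 ± 44.5 with PTDSS1i in KYSE30 and 3535 ± 74.8 with DMSO and 6726 ± 122 with PTDSS1i in the U138MG-labelled libraries (mean ± SD, n = 3). In such bulk libraries, a change in the share of cells and a change in RNA per cell cannot be told apart.

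In KYSE30, 39 of the genes passed the filter on low counts, of which 24 rose, 10 fell and 5 were not called, so 34 (87.2%) were called where 62.0% of all 16389 genes tested were. Among all genes 30.1% rose and 32.0% fell. The 40 were chosen with earlier results of these data known, so shares here describe the list and do not test the pathway. In the U138MG-labelled libraries all 40 were tested, 26 rose, 7 fell and 7 were not called, so 33 (82.5%) were called against 67.5% of all 17666 genes, of which 33.9% rose and 33.6% fell. The median log2 fold change of the genes was 0.33 in KYSE30, beside -0.025 over all genes tested, and 0.46 in the U138MG-labelled libraries, beside -0.026. An absolute log2 fold change over 1 was passed by 8 genes in KYSE30, 6 higher and 2 lower (20.5%, against 13.4% of all genes), and by 14 in the U138MG-labelled libraries, all higher (35.0%, against 19.8%). The 3 DMSO and 3 PTDSS1i libraries did not overlap for 35 genes in KYSE30, where 66.3% of all genes did not, and for 34 in the U138MG-labelled libraries, where 71.4% did not.

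**Figure D1:**
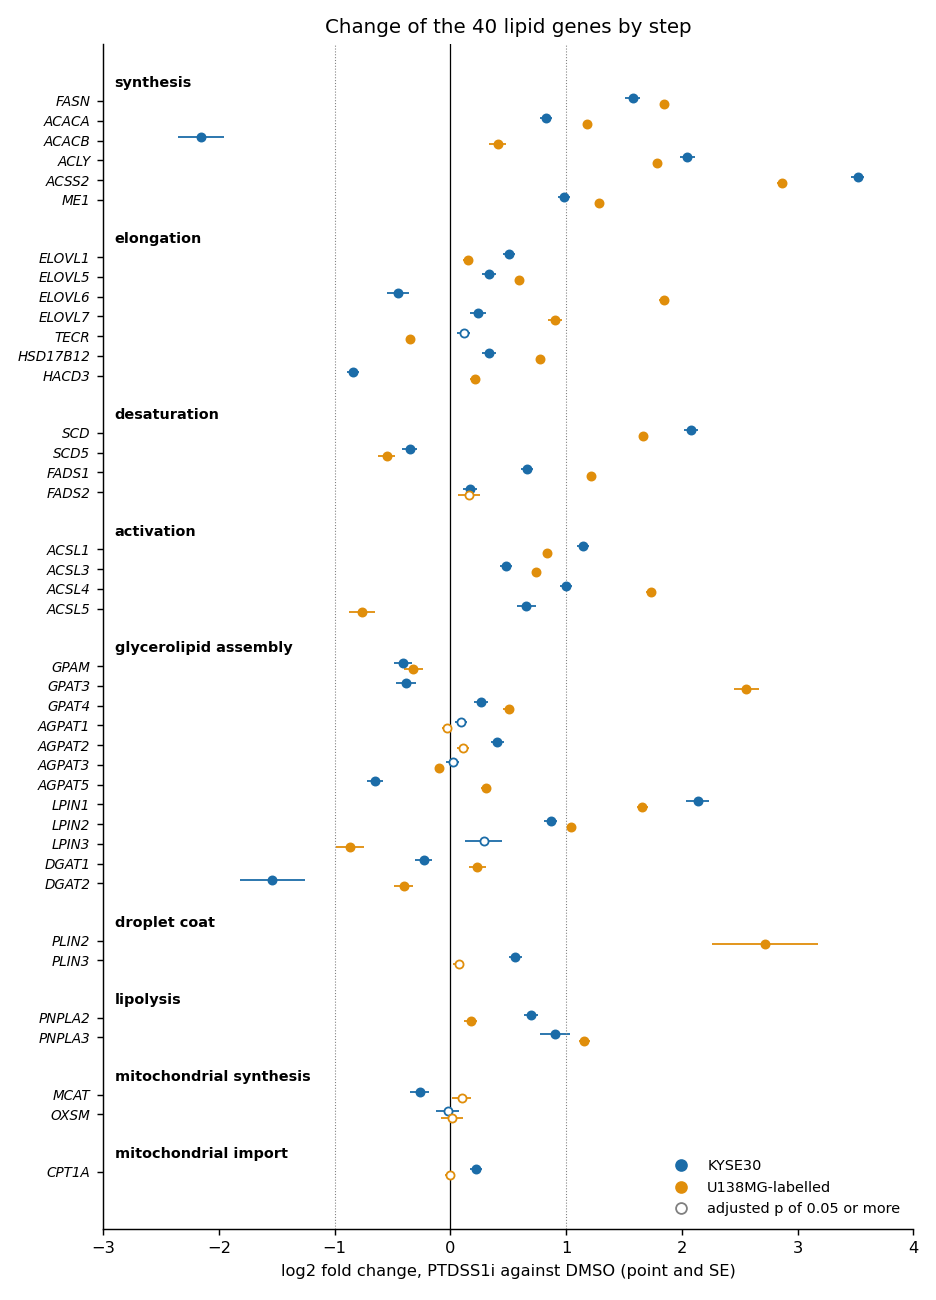
Log2 fold change (PTDSS1i against DMSO, x axis) with its SE for the 40 lipid genes grouped by step, KYSE30 in blue and U138MG-labelled in orange, with 3 libraries per group and open points for an adjusted p of 0.05 or more. Dotted lines mark an absolute log2 fold change of 1. ACSS2 lies farthest right in both lines, at 3.52 and 2.86, and PLIN2 has no KYSE30 point because it was not tested there.

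Genes of cytosolic synthesis had a median log2 fold change of 1.28 in KYSE30 and 1.54 in the U138MG-labelled libraries. All 6 genes of this step rose in the U138MG-labelled libraries, and 5 of 6 rose in KYSE30, where ACACB fell. ACSS2 (chromosome 20, 34872146 to 34927962, plus strand, GRCh38), the cytosolic synthetase that makes acetyl-CoA from acetate, had the highest positive log2 fold change among the 40 in both lines. ACSS2 in KYSE30 read 51.9, 48.001 and 49.2 normalized CPM with DMSO and 572, 564 and 574 with PTDSS1i. ACSS2 in the U138MG-labelled libraries read 70.9, 67.7 and 72.018 normalized CPM with DMSO and 510.3, 507 and 514 with PTDSS1i. Treated libraries stood apart from DMSO libraries by 11.5-fold in KYSE30 (log2 fold change 3.52, SE 0.0561, edgeR adjusted p = 3.61e-21) and 7.27-fold in the U138MG-labelled libraries (log2 fold change 2.86, SE 0.0371, edgeR adjusted p = 3.39e-30). ACLY, which cleaves citrate to acetyl-CoA, rose in both lines as well. ACLY in KYSE30 read 294, 236 and 263 normalized CPM with DMSO and 1084, 1101 and 1096 with PTDSS1i. ACLY in the U138MG-labelled libraries read 285, 272 and 288 normalized CPM with DMSO and 956, 939 and 1028 with PTDSS1i. The rise was 4.13-fold (log2 fold change 2.05, SE 0.0660, edgeR adjusted p = 4.72e-16) and 3.46-fold (log2 fold change 1.79, SE 0.0378, edgeR adjusted p = 3.90e-25), respectively.

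FASN (chromosome 17, 82078333 to 82098332, minus strand), the fatty acid synthase that carries out chain building, was the most abundant of these 6 transcripts. FASN in KYSE30 read 2146, 1775 and 1857 normalized CPM with DMSO and 5831, 5702 and 5696 with PTDSS1i. FASN in the U138MG-labelled libraries read 1123, 1066 and 1153 normalized CPM with DMSO and 4004, 4019 and 3989 with PTDSS1i. DMSO and PTDSS1i libraries did not overlap in either line, and FASN rose 2.98-fold in KYSE30 (log2 fold change 1.58, SE 0.0666, edgeR adjusted p = 1.09e-14) and 3.60-fold in the U138MG-labelled libraries (log2 fold change 1.85, SE 0.0358, edgeR adjusted p = 5.01e-26). ME1, the malic enzyme that supplies NADPH, approached the threshold of 1 in KYSE30 and passed it in the U138MG-labelled libraries. ME1 in KYSE30 read 57.8, 54.001 and 57.4 normalized CPM with DMSO and 109.8, 114 and 111 with PTDSS1i. ME1 in the U138MG-labelled libraries read 126, 118 and 133 normalized CPM with DMSO and 302, 309 and 309 with PTDSS1i. Its log2 fold change was 0.98 ± 0.0535 (SE) in KYSE30, or 1.01 without DMSO library 1, and 1.29 ± 0.0388 in the U138MG-labelled libraries.

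The 2 acetyl-CoA carboxylases, which commit acetyl-CoA to fatty acids by making malonyl-CoA, parted in KYSE30. ACACA encodes the cytosolic enzyme and ACACB the form at the outer mitochondrial membrane, whose malonyl-CoA restrains CPT1. ACACA in KYSE30 read 113, 110.02 and 118 normalized CPM with DMSO and 200.01, 199 and 208 with PTDSS1i. ACACA in the U138MG-labelled libraries read 302, 297 and 314 normalized CPM with DMSO and 683, 682 and 705 with PTDSS1i. ACACA rose in both lines, 1.78-fold (log2 fold change 0.83, SE 0.0507, edgeR adjusted p = 5.29e-12) and 2.27-fold (log2 fold change 1.18, SE 0.0340, edgeR adjusted p = 3.83e-22). ACACB in KYSE30 read 4.30, 5.04 and 4.85 normalized CPM with DMSO and 0.886, 1.38 and 0.949 with PTDSS1i. ACACB in the U138MG-labelled libraries read 21.8, 22.6 and 26.3 normalized CPM with DMSO and 31.2, 33.4 and 29.5 with PTDSS1i. ACACB fell 4.45-fold in KYSE30 (log2 fold change -2.15, SE 0.196, edgeR adjusted p = 3.71e-09), on 19 to 114 counts per library, and rose 1.33-fold in the U138MG-labelled libraries (log2 fold change 0.41, SE 0.0740, edgeR adjusted p = 2.01e-05). The difference between the lines (U138MG-labelled minus KYSE30, interaction of line and treatment) was 2.53 ± 0.199, edgeR adjusted p = 2.71e-12, and it was called for 49.9% of all 18405 genes tested. Per kilobase of exon, ACACA held 96.4 ± 0.331% with DMSO and 99.5 ± 0.125% with PTDSS1i of the carboxylase level in KYSE30 and 93.5 ± 0.464% with DMSO and 96.1 ± 0.290% with PTDSS1i in the U138MG-labelled libraries.

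**Figure D2:**
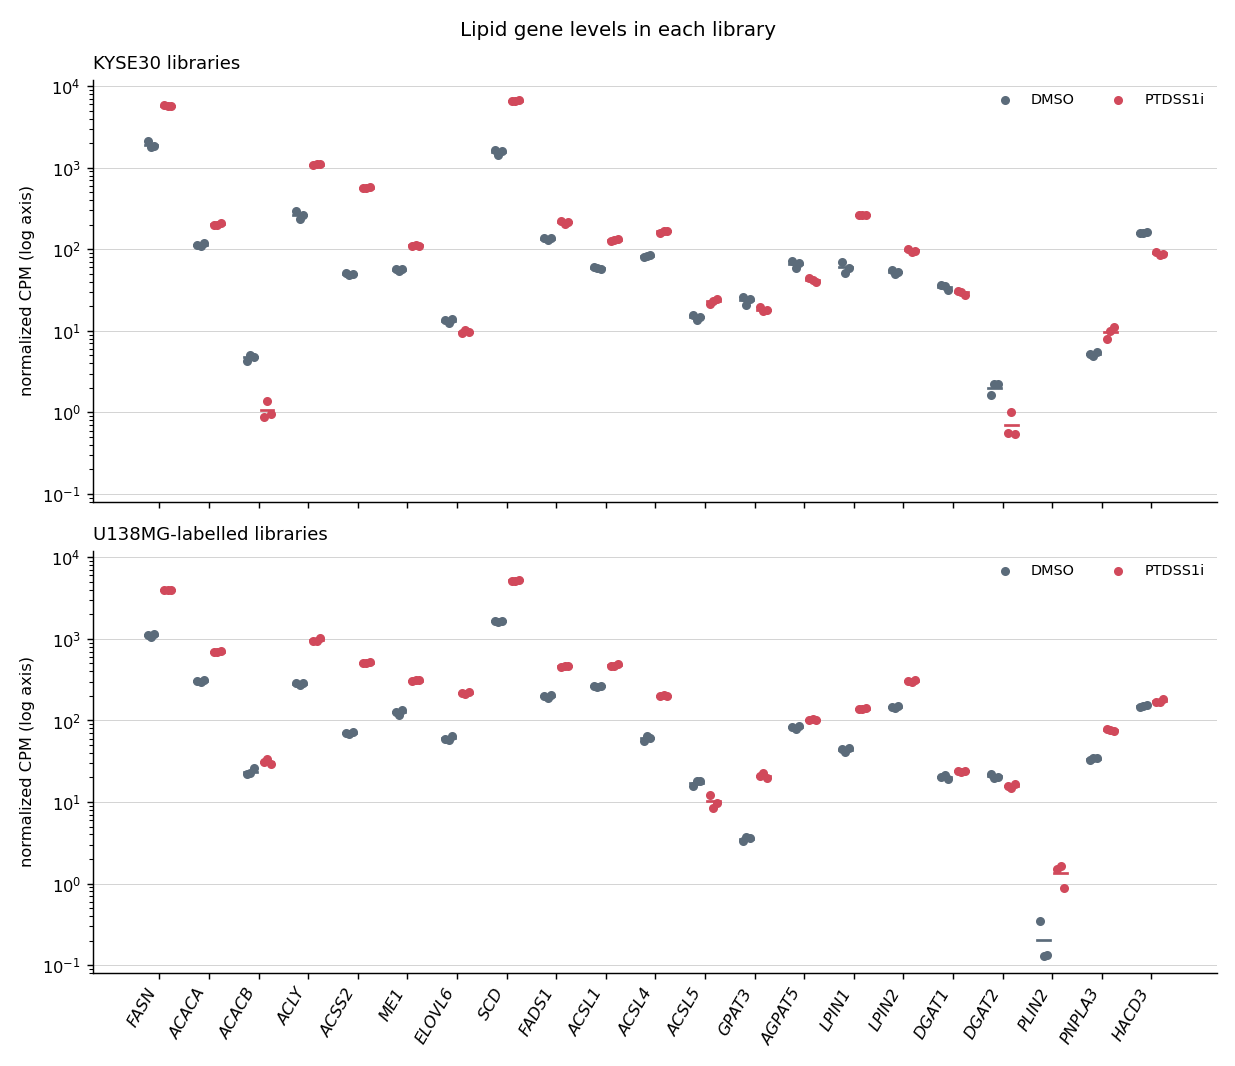
Normalized CPM (log axis) in each library for the 21 lipid genes that passed an absolute log2 fold change of 1 in a line or were called in opposite directions in the 2 lines, DMSO in grey and PTDSS1i in red, with a bar at the mean of 3 libraries. FASN and SCD lie highest in every library, ACACB and GPAT3 move in opposite directions in the 2 panels, and PLIN2 is not drawn in KYSE30, where it had at most 1 count in a library.

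SCD (chromosome 10, 100347124 to 100364834, plus strand) introduces the double bond of oleate and palmitoleate, and it rose most among the 4 desaturase genes. SCD in KYSE30 read 1652, 1434 and 1612 normalized CPM with DMSO and 6535, 6510.3 and 6798 with PTDSS1i. SCD in the U138MG-labelled libraries read 1673, 1589.8 and 1671 normalized CPM with DMSO and 5172, 5199.5 and 5291 with PTDSS1i. SCD rose 4.22-fold in KYSE30 (log2 fold change 2.08, SE 0.0635, edgeR adjusted p = 9.15e-17) and 3.17-fold in the U138MG-labelled libraries (log2 fold change 1.67, SE 0.0349, edgeR adjusted p = 2.54e-25). SCD has a processed pseudogene, and how reads that match both were counted is not stated. The paralog SCD5 fell in both lines, with log2 fold changes of -0.35 and -0.55. Per kilobase of exon SCD5 held 2.83 ± 0.214% with DMSO and 0.536 ± 0.0252% with PTDSS1i of the summed SCD and SCD5 level in KYSE30. FADS1, the delta-5 desaturase of polyunsaturated fatty acids, rose in both lines. FADS1 in KYSE30 read 136, 130.5 and 139 normalized CPM with DMSO and 221, 205 and 216 with PTDSS1i. FADS1 in the U138MG-labelled libraries read 200.2, 188 and 207 normalized CPM with DMSO and 455, 460.1 and 471 with PTDSS1i. The changes of FADS1 were log2 fold change 0.66 ± 0.0512, edgeR adjusted p = 2.76e-10 in KYSE30 and log2 fold change 1.22 ± 0.0364, edgeR adjusted p = 8.93e-22 in the U138MG-labelled libraries. FADS2, the delta-6 desaturase, rose by 0.17 on the log2 scale in KYSE30 (adjusted p = 0.0248, edgeR) and was not called in the U138MG-labelled libraries, at 0.16 (adjusted p = 0.137, edgeR). Without DMSO library 1 of the U138MG-labelled set FADS2 was 0.27 and called, as it was without a filter (0.19). The FADS2 call in KYSE30 was lost when any one of 4 libraries was left out, with values of 0.12 without DMSO library 2, 0.15 without DMSO library 3, 0.16 without PTDSS1i library 2 and 0.18 without PTDSS1i library 3, and by library size (0.066). Exons of FADS1 and FADS2 overlap by 490 bases on opposite strands, and reads there cannot be assigned without strand.

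RefSeq promoter windows of GRCh38.p14, from 250 bases before to 50 bases after an annotated start, were available for 31 of the 40 genes, in 54 windows. Windows of SCD, ACLY and ACSS2, which each rose over 3-fold in both lines, and of ACSL1 are shown. They were picked because these genes rose and hold a match. LPIN1, which also rose over 3-fold in both, had none of the motifs in its windows. Capitals mark the motifs CCAAT, read on either strand, and, in ACSL1, the sterol regulatory element TCACNCCAC.
SCD (chr10:100346983-100347282, plus strand): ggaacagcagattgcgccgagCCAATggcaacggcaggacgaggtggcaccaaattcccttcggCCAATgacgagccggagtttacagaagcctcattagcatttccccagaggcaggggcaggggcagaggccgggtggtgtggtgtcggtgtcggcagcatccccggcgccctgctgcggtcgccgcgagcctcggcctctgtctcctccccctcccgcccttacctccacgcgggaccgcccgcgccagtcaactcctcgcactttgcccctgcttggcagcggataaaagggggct
ACLY (chr17:41918902-41919201, minus strand): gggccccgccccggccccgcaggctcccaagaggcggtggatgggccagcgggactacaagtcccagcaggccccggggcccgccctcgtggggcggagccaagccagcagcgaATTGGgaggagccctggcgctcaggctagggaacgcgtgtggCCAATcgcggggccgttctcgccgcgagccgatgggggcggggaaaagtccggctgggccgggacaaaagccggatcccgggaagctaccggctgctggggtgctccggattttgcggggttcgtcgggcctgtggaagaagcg
ACSS2 (chr20:34874739-34875038, plus strand): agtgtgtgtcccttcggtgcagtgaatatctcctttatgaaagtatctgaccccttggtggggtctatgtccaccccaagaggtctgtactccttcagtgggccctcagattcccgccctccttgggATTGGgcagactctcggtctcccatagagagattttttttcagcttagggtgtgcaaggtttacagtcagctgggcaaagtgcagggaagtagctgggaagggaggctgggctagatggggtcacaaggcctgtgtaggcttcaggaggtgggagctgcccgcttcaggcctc
ACSL1 (chr4:184805504-184805803, minus strand): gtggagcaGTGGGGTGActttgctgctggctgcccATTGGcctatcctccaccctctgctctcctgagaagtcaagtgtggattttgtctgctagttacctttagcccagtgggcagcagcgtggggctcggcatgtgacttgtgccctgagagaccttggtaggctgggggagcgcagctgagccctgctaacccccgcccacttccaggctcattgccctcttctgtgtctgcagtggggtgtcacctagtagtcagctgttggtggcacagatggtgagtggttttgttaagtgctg
The sterol regulatory element letters were found in windows of ACSL1 and PNPLA2, 3.70% of the 54 windows, and in 1.13% of 35116 windows of all genes. CCAAT was in 40.7% of the 54 windows and 34.6% of all. It was also in windows of SCD5 and GPAM, which fell in both lines, and of AGPAT1, which was called in neither. ME1, FADS1 and ACSL4 rose in both lines without CCAAT in their windows. Whether a motif goes with a change was not tested. ACACB carried the letters TGACGTGG, 1.85% against 0.729% of all windows, and the E-box CACGTG was in ELOVL5, LPIN2 and PLIN2, 5.56% against 7.26%. Matches to TGATGNAA were in 0 of the 54 windows and in 3.62% of all. Neither the ER stress response element nor the PPAR response element was matched in any of the 54. They were matched in only 0.077% and 0.023% of all windows, so their absence from 54 says little. These matches describe letters only. ACSL1 has 5 windows and the element stood in an internal one, while the ACSS2 window shown is 1 of 2.

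Elongation proceeds by condensation, reduction, dehydration and a further reduction, and its 7 genes gave 4 higher, 2 lower and 1 not called in KYSE30 and 6 higher and 1 lower in the U138MG-labelled libraries. ELOVL6, which extends palmitate to stearate, differed most. ELOVL6 in KYSE30 read 13.8, 12.5 and 13.9 normalized CPM with DMSO and 9.42, 10.1 and 9.78 with PTDSS1i. ELOVL6 in the U138MG-labelled libraries read 59.1, 57.8 and 64.2 normalized CPM with DMSO and 216, 212 and 223 with PTDSS1i. It fell 1.37-fold in KYSE30 (log2 fold change -0.46, SE 0.0946, edgeR adjusted p = 2.61e-04) and rose 3.60-fold in the U138MG-labelled libraries (log2 fold change 1.85, SE 0.0415, edgeR adjusted p = 1.22e-24), a difference of 2.27 ± 0.0931, edgeR adjusted p = 4.74e-19. HACD3, a dehydratase of the elongation cycle, also went in opposite directions. HACD3 in KYSE30 read 160.1, 156 and 163 normalized CPM with DMSO and 93.3, 85.2 and 88.8 with PTDSS1i. HACD3 in the U138MG-labelled libraries read 146, 149 and 154 normalized CPM with DMSO and 166, 169 and 184 with PTDSS1i. The log2 fold changes were -0.84 and 0.21, and the latter lost its call without TMM scaling (0.064) or with upper-quartile scaling (0.066).

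The elongases ELOVL1, ELOVL5 and ELOVL7 and the reductase HSD17B12 rose in both lines, by 0.24 to 0.51 on the log2 scale in KYSE30 and 0.15 to 0.90 in the U138MG-labelled libraries. ELOVL1, which makes very long saturated chains, had the smallest of these changes in the U138MG-labelled libraries, and it lost its call under both other scalings (0.0080 by library size and 0.0090 by upper quartile). ELOVL7 lost its call in KYSE30 by library size (0.13). TECR, the last reductase of the cycle, was not called in KYSE30 (0.11) and fell by 0.35 on the log2 scale in the U138MG-labelled libraries. TECR was called in KYSE30 when DMSO library 1 was left out, at 0.20, with both lines fitted together, at 0.15, and with the replicate number as a block, at 0.12. Per kilobase of exon ELOVL6 held 1.93 ± 0.0227% with DMSO and 1.06 ± 0.0740% with PTDSS1i of the 4 elongases in KYSE30 and 7.03 ± 0.419% with DMSO and 16.4 ± 0.264% with PTDSS1i in the U138MG-labelled libraries. Its DMSO levels were 1.84 and 8.27 normalized CPM per kilobase.

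Long-chain acyl-CoA synthetases activate fatty acids, and all 4 rose in KYSE30 while 3 rose and ACSL5 fell in the U138MG-labelled libraries. ACSL4 prefers arachidonate and other polyunsaturated chains. ACSL4 in KYSE30 read 79.7, 83.5 and 85.7 normalized CPM with DMSO and 160.4, 166 and 169.9 with PTDSS1i. ACSL4 in the U138MG-labelled libraries read 56.1, 64.8 and 60.7 normalized CPM with DMSO and 202, 206 and 197 with PTDSS1i. ACSL4 rose 1.99-fold (log2 fold change 1.00, SE 0.0517, edgeR adjusted p = 3.43e-13) and 3.33-fold (log2 fold change 1.73, SE 0.0434, edgeR adjusted p = 5.86e-23), with a difference of 0.70 ± 0.0689, edgeR adjusted p = 3.89e-10. The KYSE30 value stood just under the fold threshold and passed it at 1.02 without DMSO library 3 or without PTDSS1i library 1. ACSL1, a synthetase of many tissues, passed the threshold in KYSE30. ACSL1 in KYSE30 read 60.5, 58.3 and 56.987 normalized CPM with DMSO and 125, 131 and 132 with PTDSS1i. ACSL1 in the U138MG-labelled libraries read 266, 261 and 267 normalized CPM with DMSO and 467, 464 and 487 with PTDSS1i. Log2 fold changes of ACSL1 were 1.15 and 0.84.

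ACSL5, an isoform found at mitochondria and the endoplasmic reticulum, was the one gene that rose in KYSE30 and fell in the U138MG-labelled libraries. ACSL5 in KYSE30 read 15.6, 13.6 and 14.8 normalized CPM with DMSO and 21.4, 23.2 and 24.4 with PTDSS1i. ACSL5 in the U138MG-labelled libraries read 15.7, 18.027 and 18.016 normalized CPM with DMSO and 12.2, 8.42 and 9.86 with PTDSS1i. The changes were log2 fold change 0.65 ± 0.0827, edgeR adjusted p = 5.39e-07 and log2 fold change -0.76 ± 0.111, edgeR adjusted p = 3.27e-06, and the difference was -1.46 ± 0.143, edgeR adjusted p = 6.39e-10. Exons of ZDHHC6 on the other strand overlap 3.40% of the ACSL5 exons. ACSL3, an isoform of the endoplasmic reticulum and droplets, rose by 0.48 and 0.74 on the log2 scale. Per kilobase of exon, ACSL3 made up 63.2 ± 0.936% with DMSO and 54.3 ± 0.390% with PTDSS1i of the 4 synthetases in KYSE30, whereas ACSL1 made up 52.4 ± 0.516% with DMSO and 50.035 ± 0.926% with PTDSS1i in the U138MG-labelled libraries.

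Glycerolipid assembly was split. Of its 12 genes 4 rose, 5 fell and 3 were not called in KYSE30, with a median log2 fold change of 0.057, and 6 rose, 4 fell and 2 were not called in the U138MG-labelled libraries, with a median of 0.17. LPIN1, a phosphatidate phosphatase that yields diacylglycerol, rose in both lines. LPIN1 in KYSE30 read 70.6, 50.7 and 59.4 normalized CPM with DMSO and 267, 262 and 266 with PTDSS1i. LPIN1 in the U138MG-labelled libraries read 44.986, 41.2 and 45.7 normalized CPM with DMSO and 137, 137 and 142 with PTDSS1i. LPIN1 rose 4.40-fold in KYSE30 (log2 fold change 2.14, SE 0.0982, edgeR adjusted p = 3.25e-08) and 3.16-fold in the U138MG-labelled libraries (log2 fold change 1.66, SE 0.0445, edgeR adjusted p = 7.20e-23). LPIN2, its paralog, followed. LPIN2 in KYSE30 read 55.6, 50.5 and 53.4 normalized CPM with DMSO and 102, 93.4 and 95.4 with PTDSS1i. LPIN2 in the U138MG-labelled libraries read 148, 142 and 149 normalized CPM with DMSO and 301, 296 and 310.2 with PTDSS1i. The log2 fold changes of LPIN2 were 0.87 and 1.05, while LPIN3 was not called in KYSE30 (0.29, edgeR adjusted p = 0.126, but 0.081 without DMSO library 3) and fell in the U138MG-labelled libraries (-0.87, edgeR adjusted p = 1.04e-04). Per kilobase of exon LPIN1 was 35.5 ± 2.96% with DMSO and 58.4 ± 0.545% with PTDSS1i of the lipins in KYSE30 and 11.4 ± 0.591% with DMSO and 19.5 ± 0.277% with PTDSS1i in the U138MG-labelled libraries, where LPIN2 was the main lipin at 66.4 ± 1.49% with DMSO and 73.9 ± 0.951% with PTDSS1i. LPIN3 shares 13.5% of its exon length with EMILIN3 on the other strand.

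The first acylation of glycerol-3-phosphate gave the widest gap between the lines. GPAT3 (chromosome 4, 83535914 to 83605875, plus strand) is an acyltransferase of the endoplasmic reticulum. GPAT3 in KYSE30 read 26.1, 20.6 and 24.6 normalized CPM with DMSO and 19.4, 17.4 and 17.957 with PTDSS1i. GPAT3 in the U138MG-labelled libraries read 3.35, 3.72 and 3.64 normalized CPM with DMSO and 20.7, 22.8 and 19.8 with PTDSS1i. GPAT3 fell 1.30-fold in KYSE30 (log2 fold change -0.38, SE 0.0867, edgeR adjusted p = 6.33e-04) and rose 5.89-fold in the U138MG-labelled libraries (log2 fold change 2.56, SE 0.108, edgeR adjusted p = 2.76e-18). With 2.90 ± 0.143, edgeR adjusted p = 4.41e-17, it had the largest called difference among the 40 genes. GPAM, the mitochondrial acyltransferase, fell in both lines (-0.41 and -0.32) and GPAT4, another reticular form, rose in both (0.27 and 0.50). GPAT3 made up 41.956 ± 2.72% with DMSO and 33.7 ± 0.430% with PTDSS1i of the 3 acyltransferases per kilobase of exon in KYSE30 and 10.4 ± 0.699% with DMSO and 35.1 ± 1.31% with PTDSS1i in the U138MG-labelled libraries. After treatment the 3 shares were 10.7%, 33.7% and 55.6% for GPAM, GPAT3 and GPAT4 in KYSE30 and 9.94%, 35.1% and 54.993% in the U138MG-labelled libraries.

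AGPAT enzymes add the next acyl chain to give phosphatidic acid. Those among the 40 genes had log2 fold changes from -0.65 to 0.41 in the lines. AGPAT5, reported at mitochondria, was the one with opposite calls. AGPAT5 in KYSE30 read 70.962, 58.6 and 68.3 normalized CPM with DMSO and 44.3, 41.6 and 40.2 with PTDSS1i. AGPAT5 in the U138MG-labelled libraries read 82.3, 78.6 and 86.2 normalized CPM with DMSO and 100.1, 103 and 103 with PTDSS1i. It changed by log2 fold change -0.65 ± 0.0690, edgeR adjusted p = 4.75e-08 in KYSE30 and by log2 fold change 0.31 ± 0.0419, edgeR adjusted p = 2.18e-07 in the U138MG-labelled libraries. AGPAT2, the form whose loss causes lipodystrophy, rose by 0.41 on the log2 scale in KYSE30 and was not called in the U138MG-labelled libraries (0.11), where its sign turned under both other scalings. AGPAT2 was called there, at 0.14, without DMSO library 3 and without a filter and, at 0.13, without PTDSS1i library 3. AGPAT3 was not called in KYSE30 (0.021) and fell by 0.097 on the log2 scale in the U138MG-labelled libraries, a call lost without DMSO library 1 (-0.074), PTDSS1i library 1 (-0.075) or PTDSS1i library 2 (-0.082), with DESeq2 (-0.091), without a filter (-0.066) and with both lines fitted together (-0.096). AGPAT1 was called in neither line (0.093 and -0.029), and 29.9% of its exon length overlaps PPT2-EGFL8 on the other strand. AGPAT1 rose in KYSE30, at 0.12, when DMSO library 1 was left out and, at 0.13, with both lines fitted together. In the U138MG-labelled libraries AGPAT1 fell by library size (-0.18) and by upper-quartile scaling (-0.17).

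The last step of triglyceride synthesis is catalysed by the unrelated enzymes DGAT1 and DGAT2, and both fell in KYSE30. DGAT2 fell in the U138MG-labelled libraries too. DGAT2 in KYSE30 read 1.61, 2.22 and 2.21 normalized CPM with DMSO and 0.559, 1.02 and 0.537 with PTDSS1i. DGAT2 in the U138MG-labelled libraries read 22.3, 19.8 and 20.5 normalized CPM with DMSO and 15.9, 14.8 and 16.6 with PTDSS1i. In KYSE30 the fall was 2.90-fold (log2 fold change -1.54, SE 0.277, edgeR adjusted p = 5.34e-05), on 12 to 52 counts per library, and in the U138MG-labelled libraries 1.32-fold (log2 fold change -0.40, SE 0.0804, edgeR adjusted p = 7.12e-05). DGAT1, the other enzyme, had opposite calls in the lines. DGAT1 in KYSE30 read 36.6, 35.6 and 31.8 normalized CPM with DMSO and 31.043, 29.9 and 27.7 with PTDSS1i. DGAT1 in the U138MG-labelled libraries read 20.2, 21.6 and 19.3 normalized CPM with DMSO and 24.1, 23.4 and 24.3 with PTDSS1i. It fell by 0.23 on the log2 scale in KYSE30 (edgeR adjusted p = 0.00785), a call lost without PTDSS1i library 3 (-0.18), and rose by 0.23 in the U138MG-labelled libraries (edgeR adjusted p = 0.00601), a call lost by library size (0.086) or upper-quartile scaling (0.088). Per kilobase of exon DGAT1 made up 97.03 ± 0.649% with DMSO and 98.8 ± 0.452% with PTDSS1i of both in KYSE30 and 65.1 ± 2.22% with DMSO and 74.4 ± 0.708% with PTDSS1i in the U138MG-labelled libraries.

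**Figure D3:**
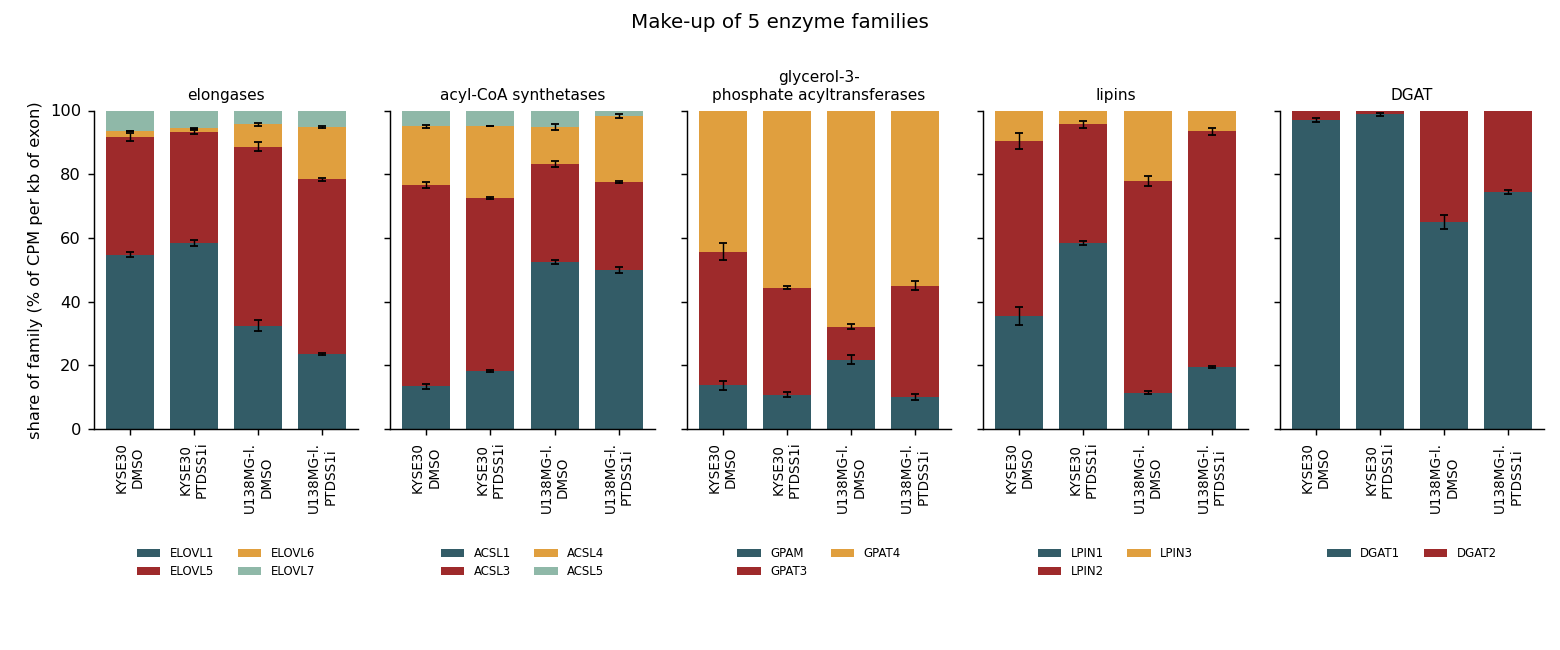
Share of each gene (y axis, percent) in the summed normalized CPM per kilobase of exon of 5 enzyme families, for DMSO and PTDSS1i in KYSE30 and in the U138MG-labelled (U138MG-l.) libraries, with stacked means of 3 libraries and SD bars drawn at the top of each segment but the last. With PTDSS1i, LPIN1 takes 58.4% of the lipins in KYSE30, and GPAT3 takes 35.1% of the acyltransferases in the U138MG-labelled libraries, from 10.4% with DMSO.

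Droplet coat and lipase genes were few. PLIN2, the perilipin found on droplets of most cells, had 0, 1 and 0 counts with DMSO and 0, 0 and 1 with PTDSS1i in KYSE30 and was not tested there. In the U138MG-labelled libraries it had 7, 3 and 3 counts with DMSO and 34, 36 and 22 with PTDSS1i, or 0.349, 0.128 and 0.133 normalized CPM with DMSO and 1.49, 1.66 and 0.878 with PTDSS1i. PLIN2 rose there (log2 fold change 2.72, SE 0.460, edgeR adjusted p = 6.44e-06) from a level close to the floor of 3 counts, and it passed the filter on low counts through its PTDSS1i libraries alone. With at least 10 counts required in every library PLIN2 was left out, and 25 genes rose in the U138MG-labelled libraries and 13 passed the fold threshold. PLIN3, a perilipin of small droplets, was far more abundant in both lines. PLIN3 rose in KYSE30, from 198, 179.8 and 171 to 279.6, 263 and 265 normalized CPM (log2 fold change 0.56 ± 0.0561, edgeR adjusted p = 1.72e-08), and was not called in the U138MG-labelled libraries (0.071, edgeR adjusted p = 0.182). Exons of an antisense gene, AC027319.1, overlap 17.9% of the PLIN3 exons.

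Both lipase genes rose in both lines. PNPLA3, a droplet-bound lipase and acyltransferase, is itself a known SREBP target. PNPLA3 in KYSE30 read 5.23, 4.89 and 5.53 normalized CPM with DMSO and 7.97, 10.1 and 11.3 with PTDSS1i. PNPLA3 in the U138MG-labelled libraries read 32.953, 34.3 and 34.8 normalized CPM with DMSO and 78.6, 75.8 and 73.5 with PTDSS1i. The changes of PNPLA3 were log2 fold change 0.91 ± 0.131, edgeR adjusted p = 3.46e-06 in KYSE30, or 1.04 without PTDSS1i library 1, and log2 fold change 1.16 ± 0.0497, edgeR adjusted p = 4.60e-18 in the U138MG-labelled libraries. PNPLA2, the adipose triglyceride lipase ATGL that starts triglyceride breakdown, rose by 0.70 on the log2 scale in KYSE30 and 0.18 in the U138MG-labelled libraries, where the call was lost without DMSO library 1 (0.12), by library size (0.028) and by upper-quartile scaling (0.030).

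The 3 mitochondrial genes had log2 fold changes between -0.26 and 0.22 in the lines. MCAT, the malonyl transferase of mitochondrial synthesis, read 19.4, 20.3 and 19.3 normalized CPM with DMSO and 17.5, 14.987 and 16.6 with PTDSS1i in KYSE30. It fell by 0.26 on the log2 scale there (edgeR adjusted p = 0.00767), a call lost without PTDSS1i library 2 (-0.21), and was not called in the U138MG-labelled libraries, at 16.7, 19.3 and 17.7 and 18.998, 17.9 and 20.4. OXSM, its condensing enzyme, was called in neither line (-0.024 and 0.014). CPT1A passes acyl groups into mitochondria for oxidation. CPT1A in KYSE30 read 101, 93.2 and 96.6 normalized CPM with DMSO and 116, 115 and 109 with PTDSS1i. CPT1A in the U138MG-labelled libraries read 269, 261 and 283 normalized CPM with DMSO and 262, 263 and 283 with PTDSS1i. It rose by 0.22 on the log2 scale in KYSE30 (edgeR adjusted p = 8.66e-04) and was not called in the U138MG-labelled libraries (-0.0061, edgeR adjusted p = 0.894), although it fell there by library size (-0.15) and upper-quartile scaling (-0.15).

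Across both lines 19 genes rose in each, 3 fell in each (SCD5, GPAM and DGAT2), 6 fell in KYSE30 and rose in the U138MG-labelled libraries (ACACB, ELOVL6, GPAT3, AGPAT5, DGAT1 and HACD3), and ACSL5 did the reverse. Of the 6, DGAT1 and HACD3 kept no call in the U138MG-labelled libraries under the other scalings. Of the 29 called in both lines 22 (75.9%) had the same sign, beside 4760 of 6850 (69.5%) over all genes called in both. Over the 39 genes tested in both, Pearson's r between the changes in the lines was 0.58 and Spearman's rho 0.52, across genes that are not independent, and over all 13990 genes tested in both r was 0.38 and rho 0.35. The difference between the lines was called for 32 of the 40 genes (49.9% of all genes), with 18 more positive in the U138MG-labelled libraries and 14 in KYSE30. With upper-quartile scaling these became 13 and 16. The genes whose difference was not called were FADS2, GPAM, AGPAT1, AGPAT3, LPIN2, PLIN2, PNPLA3 and OXSM. With upper-quartile scaling AGPAT1 and AGPAT3 were called, both at -0.27, and with the replicate number as a block these (both at -0.16) and LPIN2 (0.14) were. Among the genes that rose by over 1 on the log2 scale in both lines, ACSS2, ACLY, SCD and LPIN1 changed more in KYSE30 and FASN more in the U138MG-labelled libraries, by 0.23, which was not called without KYSE30 DMSO library 1 (0.13) or with upper-quartile scaling (0.12).

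**Figure D4:**
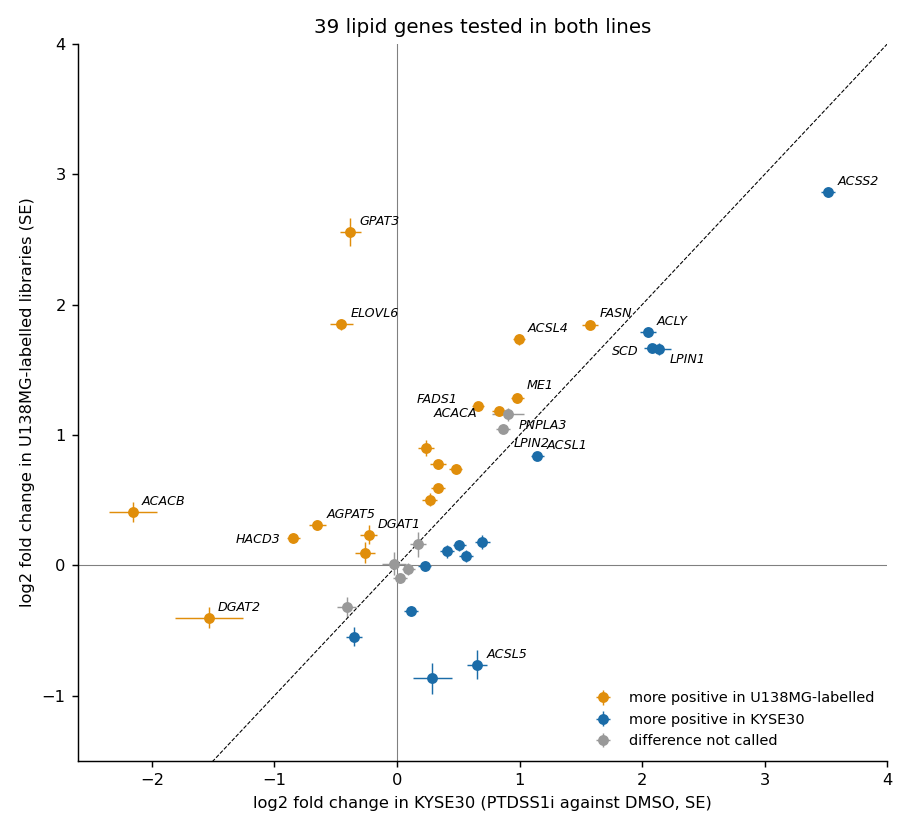
Log2 fold change with SE in KYSE30 (x axis) and in the U138MG-labelled libraries (y axis) for the 39 lipid genes tested in both, coloured by whether the difference between the lines was called, with a dashed line at equal change. GPAT3, ELOVL6 and ACACB lie at upper left, with fitted differences of 2.90, 2.27 and 2.53, and ACSL5 lies at lower right, with -1.46.

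Another 143 genes of the same pathways were listed by step, also with earlier results of these data known. Of these, 108 were tested in KYSE30, where 39 rose, 33 fell and 36 were not called. In the U138MG-labelled libraries 118 were tested, of which 52 rose, 39 fell and 27 were not called. Their median log2 fold changes were 0.058 and 0.073, below those of the 40 genes. Over all genes tested, 62.0% were called in KYSE30 (30.1% higher, 32.0% lower). In the U138MG-labelled libraries 67.5% were (33.9% higher, 33.6% lower). These shares also stand beside the counts of the lists below. Of the suppliers of citrate and NADPH, 5 rose and 2 fell of 7 tested in KYSE30 and 7 of 7 rose in the U138MG-labelled libraries. SLC25A1, the mitochondrial citrate carrier, rose in KYSE30 (from 142 to 329 normalized CPM, log2 fold change 1.21 ± 0.0544, edgeR adjusted p = 3.09e-14) and in the U138MG-labelled libraries (from 108 to 226 normalized CPM, log2 fold change 1.06 ± 0.0397, edgeR adjusted p = 1.82e-19). PGD, a source of NADPH in the pentose phosphate pathway, rose past the fold threshold in the U138MG-labelled libraries (from 568 to 1157 normalized CPM, log2 fold change 1.03 ± 0.0342, edgeR adjusted p = 1.16e-20). FADS3, a desaturase acting on sphingoid bases, did so as well (from 53.9 to 115 normalized CPM, log2 fold change 1.09 ± 0.0463, edgeR adjusted p = 3.78e-18). ACSS1, the mitochondrial relative of ACSS2, rose in KYSE30 (from 4.89 to 10.1 normalized CPM, log2 fold change 1.04 ± 0.136, edgeR adjusted p = 9.04e-07) and fell in the U138MG-labelled libraries (from 10.5 to 1.43 normalized CPM, log2 fold change -2.88 ± 0.185, edgeR adjusted p = 1.81e-13). AGPAT4, a further AGPAT, rose in KYSE30 (from 3.98 to 15.2 normalized CPM, log2 fold change 1.94 ± 0.118, edgeR adjusted p = 4.83e-12) and fell by 0.46 on the log2 scale in the U138MG-labelled libraries.

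Regulators of these genes did not move as a block, with 9 higher, 5 lower and 3 not called of 17 tested in KYSE30 and 8, 7 and 3 of 18 in the U138MG-labelled libraries. INSIG1, which retains SREBP in the endoplasmic reticulum and is itself a SREBP target, rose in KYSE30 (from 92.5 to 515 normalized CPM, log2 fold change 2.48 ± 0.0587, edgeR adjusted p = 2.04e-18) and in the U138MG-labelled libraries (from 126 to 315 normalized CPM, log2 fold change 1.32 ± 0.0360, edgeR adjusted p = 9.68e-23). SREBF2, encoding SREBP2, rose in KYSE30 (from 237 to 471 normalized CPM, log2 fold change 0.99 ± 0.0510, edgeR adjusted p = 2.96e-13) and by 0.25 on the log2 scale in the U138MG-labelled libraries. SREBF1, encoding SREBP1, was not called in KYSE30 (0.099, edgeR adjusted p = 0.0966) and fell by 0.17 in the U138MG-labelled libraries. MLXIPL, the carbohydrate response factor ChREBP, rose by 0.58 in KYSE30 and was not called in the U138MG-labelled libraries (-0.061). PPARG, a factor of adipocyte and epithelial lipid genes, was not called in KYSE30 (0.059) and rose in the U138MG-labelled libraries (from 8.06 to 34.7 normalized CPM, log2 fold change 2.11 ± 0.0909, edgeR adjusted p = 1.76e-17).

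Other lipolysis genes were 3 higher, 0 lower and 4 not called of 7 tested in KYSE30 and 7 higher, 1 lower and 1 not called of 9 in the U138MG-labelled libraries. MGLL, the lipase that completes triglyceride breakdown, rose in KYSE30 (from 3.21 to 11.5 normalized CPM, log2 fold change 1.84 ± 0.151, edgeR adjusted p = 1.23e-09) and in the U138MG-labelled libraries (from 17.967 to 94.3 normalized CPM, log2 fold change 2.39 ± 0.0549, edgeR adjusted p = 1.90e-24). LIPE, the hormone-sensitive lipase of diacylglycerol, rose in the U138MG-labelled libraries (from 5.05 to 25.8 normalized CPM, log2 fold change 2.36 ± 0.0927, edgeR adjusted p = 5.87e-19) and was not tested in KYSE30. LIPG, the endothelial lipase, rose there too (from 0.903 to 26.6 normalized CPM, log2 fold change 4.88 ± 0.132, edgeR adjusted p = 9.06e-23), and ABHD6, a monoacylglycerol hydrolase, had a log2 fold change of 1.0995. ABHD5, the activator of ATGL, was not called in KYSE30 (0.093) and rose by 0.26 in the U138MG-labelled libraries. G0S2, an inhibitor of ATGL, was at 0 counts in all 6 U138MG-labelled libraries and was not analysed in KYSE30. HILPDA, another inhibitor of ATGL, rose by 0.35 in KYSE30 and 0.47 in the U138MG-labelled libraries.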

How the data were processed

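Per the labels, RNA was taken with TRIzol and poly-A libraries were made with the TruSeq RNA v2 kit, which does not mark strand. The authors deposited raw counts (whole reads per gene, not normalized), in a table for each line. The submitters' processing notes name Trimmomatic, STAR, featureCounts and hg38, without roles or versions. Versions, the annotation and the strand setting are not given in the sources used here. The growth label of the U138MG libraries describes KYSE30 cells.

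Tests used edgeR 4.0.16 and limma 3.58.1 under R 4.3.3, and the plots matplotlib 3.10.9 and pandas 2.3.3 under Python 3.11.15. Low genes were removed by filterByExpr (minimum count 10, minimum total 15), scaled by TMM and tested by robust quasi-likelihood F-tests, with p adjusted by Benjamini-Hochberg over all genes of a line, at 0.05 on the adjusted p and 1 on the absolute log2 fold change. The interaction of line and treatment was fitted over 12 libraries, joined by Ensembl identifier without version (30358 shared). Totals and the 3-count floor cover counting error only, and edgeR's common biological coefficient of variation was 0.0549 and 0.0452. Replicates were compared by chi-square over genes with at least 20 counts, at 2.29 to 7.44 per degree of freedom, so none was a duplicate. Exon lengths and overlaps came from a GENCODE annotation of GRCh38, not known to be the authors' own, and promoters from RefSeq, GRCh38.p14.

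Members and lists were chosen with earlier results of these data known. Values in every library are given for members past the fold threshold in a line, called in opposite directions, or with the largest change of their step. Of the other pathway genes, at most 3 per list and line are named, with a mean of at least 5 normalized CPM in a treatment and past both thresholds, plus 9 regulators and lipolysis genes named whatever their change. Alternatives were library size only, upper quartile, DESeq2 1.42.0, 2 other filters, stricter thresholds, both lines together, a replicate block and each library left out. The scripts were tested on simulated counts with known changes, with the same coefficient of variation for every gene. At an absolute log2 change of 1, edgeR recovered 94 of 100 in KYSE30, 93 of 98 in the U138MG-labelled set and 67 of 96 for the interaction. At 0.5 these were 76 of 99, 75 of 99 and 43 of 100. A difference between the lines that was not called is therefore not shown to be absent.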

Additional observations from a re-analysis of the deposited data

Results flagged for a closer look

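The treatment effect differed between the U138MG-labelled and the KYSE30 libraries for 32 of the 40 genes by the interaction of line and treatment (edgeR adjusted p under 0.05, 12 libraries). Such a difference was called for 49.9% of all 18405 genes tested. Each value below is the log2 fold change in the U138MG-labelled libraries minus that in KYSE30, as fitted jointly over the 12 libraries. It can differ slightly from the difference of the values fitted per line, such as 1.58 and 1.85 for FASN beside 0.23. Line and batch cannot be told apart.

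In synthesis, the difference was 0.23 for FASN, 0.31 for ACACA, 2.53 for ACACB and 0.26 for ME1 and, in the other direction, -0.30 for ACLY and -0.70 for ACSS2. In elongation, the difference was 0.22 for ELOVL5, 2.27 for ELOVL6, 0.62 for ELOVL7, 0.40 for HSD17B12 and 1.02 for HACD3 and, in the other direction, -0.39 for ELOVL1 and -0.50 for TECR. In desaturation, the difference was 0.52 for FADS1 and, in the other direction, -0.45 for SCD and -0.24 for SCD5. In activation, the difference was 0.22 for ACSL3 and 0.70 for ACSL4 and, in the other direction, -0.35 for ACSL1 and -1.46 for ACSL5. In glycerolipid assembly, the difference was 2.90 for GPAT3, 0.20 for GPAT4, 0.92 for AGPAT5, 0.42 for DGAT1 and 1.0986 for DGAT2 and, in the other direction, -0.34 for AGPAT2, -0.52 for LPIN1 and -1.19 for LPIN3. For the droplet coat, the difference was -0.53 for PLIN3. In lipolysis, the difference was -0.56 for PNPLA2. In mitochondrial synthesis, the difference was 0.32 for MCAT. In mitochondrial import, the difference was -0.27 for CPT1A. SCD5 and DGAT2 fell in both lines, by more in the U138MG-labelled libraries for SCD5 and by more in KYSE30 for DGAT2. The calls of SCD5, GPAT4, MCAT, ELOVL5 and FASN were each lost in at least 1 fit without 1 library, and the values ranged from -0.29 to -0.21 for SCD5, from 0.13 to 0.23 for GPAT4, from 0.25 to 0.38 for MCAT, from 0.16 to 0.28 for ELOVL5, from 0.13 to 0.28 for FASN. With upper-quartile scaling the calls of ACSL3 (0.11), ELOVL5 (0.11), GPAT4 (0.087), MCAT (0.21) and FASN (0.12) were lost, and those of SCD5 and GPAT4 were also lost with DESeq2 (-0.24 and 0.19).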

How the results depend on the processing

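The counts of called genes stayed within 1.5 times of the reported ones under every scaling, filter, tool, the joint fit, the replicate block and each left-out library. Without 1 library, 32 to 36 genes were called in KYSE30, 32 to 34 in the U138MG-labelled libraries and 29 to 34 for the difference between the lines. Requiring an absolute log2 fold change over 1 left 8 genes in KYSE30, 6 higher and 2 lower, and 14 in the U138MG-labelled libraries, 14 higher and 0 lower. These fold counts were 8 to 10 and 14 to 14 without 1 library. No scaling, tool, filter or left-out library turned the sign of a called gene. Library size scaling moved the median of all genes by -0.11 in KYSE30 and -0.15 in the U138MG-labelled libraries, and upper-quartile scaling by -0.024 and -0.15, and the medians of the 40 genes were then 0.23 and 0.31, and 0.31 and 0.31. The U138MG-labelled counts became 22 higher and 9 lower under both. DESeq2 called 34, 32 and 30. Signs turned for uncalled genes only, for causes that were not tested. In KYSE30 these were, by library size, AGPAT1 (-0.012), AGPAT3 (-0.085), by upper quartile AGPAT3 (-0.0026) and in the joint fit OXSM (0.017). In the U138MG-labelled libraries they were, by library size, AGPAT2 (-0.039), PLIN3 (-0.076), MCAT (-0.050), OXSM (-0.13), by upper quartile AGPAT2 (-0.038), PLIN3 (-0.075), MCAT (-0.049), OXSM (-0.13), without a filter AGPAT1 (0.0017), CPT1A (0.025) and with at least 10 counts in every library OXSM (-0.010). For the difference they were GPAM by upper quartile (-0.059) and OXSM without a filter (0.0084). Without 1 library, AGPAT3 ranged from -0.020 to 0.068 and OXSM from -0.054 to 0.014 in KYSE30, OXSM from -0.056 to 0.11, CPT1A from -0.035 to 0.030 and AGPAT1 from -0.037 to 0.0091 in the U138MG-labelled libraries, and OXSM from -0.088 to 0.080, GPAM from -0.012 to 0.098 and FADS2 from -0.15 to 0.047 for the difference.

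Deviations of libraries with the same replicate number had correlations of 0.075, 0.072 and 0.020 in KYSE30. In the U138MG-labelled libraries these were 0.0088, -0.0029 and 0.048. Between different numbers they ran from -0.076 to 0.0061 in KYSE30 and from -0.064 to 0.056 in the U138MG-labelled libraries. All were small, and whether the number marks a pairing cannot be told from them. With the replicate number as a block, 35 genes were called in KYSE30 (25 higher, 10 lower), 33 in the U138MG-labelled libraries (26 and 7) and 35 for the difference (19 and 16), where OXSM changed sign (0.0012).

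Depth limits PLIN2, ACACB and DGAT2 most. PLIN2 had at most 36 counts in a library, and ACACB and DGAT2 in KYSE30 at most 114 and 52.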

Other observations

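Genes of fatty acid uptake, storage surfaces and oxidation, outside the 40, changed in both directions. For the counts below, 62.0% of all genes tested were called in KYSE30 (30.1% higher, 32.0% lower). In the U138MG-labelled libraries 67.5% were called (33.9% higher, 33.6% lower). CAV1, the caveolar protein also found on droplets, fell in KYSE30 (from 651 to 303 normalized CPM, log2 fold change -1.1037 ± 0.0674, edgeR adjusted p = 6.60e-11). METTL7A, a droplet-associated methyltransferase, fell in the U138MG-labelled libraries (from 96.7 to 11.7 normalized CPM, log2 fold change -3.05 ± 0.0606, edgeR adjusted p = 7.79e-26), as did HSD17B11 (from 5.69 to 1.92 normalized CPM, log2 fold change -1.56 ± 0.178, edgeR adjusted p = 9.99e-09). Among other droplet proteins 5 rose, 5 fell and 4 were not called of 14 tested in KYSE30, and 6, 7 and 3 of 16 in the U138MG-labelled libraries. CD36, a fatty acid translocase, fell in the U138MG-labelled libraries (from 205 to 71.7 normalized CPM, log2 fold change -1.51 ± 0.0442, edgeR adjusted p = 8.48e-20) and was not tested in KYSE30. Of the fatty acid binding protein genes, FABP5 fell in KYSE30 (from 5.47 to 1.71 normalized CPM, log2 fold change -1.69 ± 0.184, edgeR adjusted p = 5.81e-08). FABP3, a different gene, rose in the U138MG-labelled libraries (from 1.95 to 6.07 normalized CPM, log2 fold change 1.64 ± 0.186, edgeR adjusted p = 8.80e-09).

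Mitochondrial beta-oxidation genes were 4 higher, 7 lower and 7 not called of 18 tested in KYSE30 and 4, 8 and 5 of 17 in the U138MG-labelled libraries, with medians of -0.010 and -0.095. DECR1, a reductase for unsaturated chains, fell in the U138MG-labelled libraries (from 24.4 to 10.3 normalized CPM, log2 fold change -1.24 ± 0.0818, edgeR adjusted p = 8.95e-14). Peroxisomal genes were 3 higher, 4 lower and 3 not called of 10 and 3, 6 and 2 of 11, with EHHADH (from 18.988 to 8.64 normalized CPM, log2 fold change -1.13 ± 0.0955, edgeR adjusted p = 2.04e-11) and CROT (from 33.1 to 11.1 normalized CPM, log2 fold change -1.57 ± 0.0809, edgeR adjusted p = 3.45e-16) lower in the U138MG-labelled libraries. In the peroxisomal list 1 gene rose past the fold threshold in the U138MG-labelled libraries, where the largest log2 fold change of that list was 2.85. Of the AMPK genes 2 rose, 0 fell and 6 were not called in KYSE30, and 4, 1 and 3 in the U138MG-labelled libraries. Other mitochondrial synthesis genes were 0 higher, 4 lower and 2 not called of 6 and 3, 2 and 2 of 7. Fatty acid import and binding genes were 2 higher, 2 lower and 0 not called of 4 and 2, 1 and 4 of 7, and other elongation, desaturation and activation genes 4, 1 and 6 of 11 and 5, 4 and 3 of 12. Other assembly genes were 2 higher, 3 lower and 1 not called of 6 in KYSE30 and 3, 2 and 1 of 6 in the U138MG-labelled libraries.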
